A study of Sus scrofa with 21 samples.

Results

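Complex I, complex III and ATP synthase of the mitochondrial inner membrane were described through the nuclear genes that code for them. The members were the probe sets whose platform gene symbol starts with NDUF, UQCR or ATP5, or is CYC1, with a log2 value above 3 in at least 10 of the 21 arrays. For a gene with several, the probe set of highest mean level was kept. A probe set is the group of short probes by which the array reads 1 transcript. The choice gave 52 of the 4977 named genes among the 12180 probe sets above that minimum, out of 24123 in the deposited table. It began with 67 matching probe sets, of which 66 carried 1 gene symbol each and 59 of these lay above the minimum. All 52 genes named in this way had a probe set above it. The other matching probe set, whose entry lists ATP5SL more than once, was set aside as naming several genes. It lay above the minimum, so ATP5SL matched the rule but is not among the members. By role the genes were 32 subunits of complex I, 2 of complex III, 13 of ATP synthase, 4 that carry an NDUF name without being complex I subunits (NDUFA4, a subunit of complex IV, and the assembly factors NDUFAF1, NDUFAF2 and NDUFAF3), and ATP5S, a factor named for ATP synthase. CYC1 was not named on the platform, so complex III rested on UQCRB and UQCR10.

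The arrays were porcine 3' expression arrays hybridised with RNA of pig myocardium. Control myocardium (CM) came from 3 pigs that the labels call sham-operated at day 0 and the study's methods call healthy. The other 9 pigs, female Landrace x Large White, had a surgically induced myocardial infarction, made by coronary ligation. The study's methods give sex and breed for the infarcted pigs only. From each infarcted pig, remote myocardium (RM) was taken from the interventricular septum and infarct core (IC) from the middle of the scar, at 1 week (6 days), 4 weeks (30 days) or 6 weeks (45 days), which gave 7 groups of 3 arrays. All controls were 1 group with no stage of their own, so the effects of age or of time since surgery could not be told apart from stage. The place in the heart that CM was taken from is not given in the sources used here, so region and infarction cannot be fully told apart either.

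The respiratory chain moves electrons from NADH and succinate to oxygen and stores the energy as a proton gradient across the inner membrane. Complex I takes electrons from NADH and passes them to ubiquinone, complex III passes them from ubiquinol to cytochrome c, and ATP synthase lets protons flow back through its membrane ring to drive the rotation that makes ATP. Heart muscle, which contracts without pause, is among the tissues richest in mitochondria and in these complexes. Each complex is built from many subunits, some coded by mitochondrial DNA and the others by nuclear genes. The members are all nuclear, and none of the 26 symbols searched for mitochondrially encoded subunits was measured above the minimum.

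Genes of all 3 complexes were lower in the infarct core than in control myocardium at every stage, and none of the 52 was called different in remote myocardium. In IC against CM, 51, 52 and 52 of the 52 members were lower at 1, 4 and 6 weeks and 0 were higher (limma, adjusted p under 0.05 over all probe sets tested). Of all probe sets tested, 28.2%, 29.1% and 26% were lower and 26%, 25.3% and 21% were higher. The members' median log2 change from CM was -1.12, -1.46 and -0.88, where that of all probe sets tested was -0.06, -0.06 and -0.08. NDUFB5, an accessory subunit of the membrane arm of complex I, was the member not called at 1 week (log2 change -0.55 ± 0.27 SE, adjusted p = 0.0899). In bulk tissue, fewer cells of a type and less RNA per cell cannot be told apart.

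The separation was seen array by array. Every one of the 52 genes had all 3 IC arrays below all 3 CM arrays at 1, 4 and 6 weeks, an order held by 33.9%, 32.8% and 30.3% of the probe sets tested. In 47 of 52 genes all 9 IC arrays lay below all 12 CM and RM arrays, an order held by 12% of the probe sets tested. The exceptions were ATP5G3, NDUFA1, NDUFB5, NDUFB9 and NDUFAF2. Summarised as the median over the 52 genes of the difference from the CM mean, the IC arrays stood at -1.05, -1.24 and -1.06 log2 at 1 week, at -1.31, -1.23 and -1.76 at 4 weeks and at -0.70, -0.88 and -1.02 at 6 weeks. The RM arrays stood between -0.23 and 0.12. The array of pig 22 in IC at 4 weeks was the lowest of the 21 and lay further from its group than any other IC array did.

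**Figure D1:**
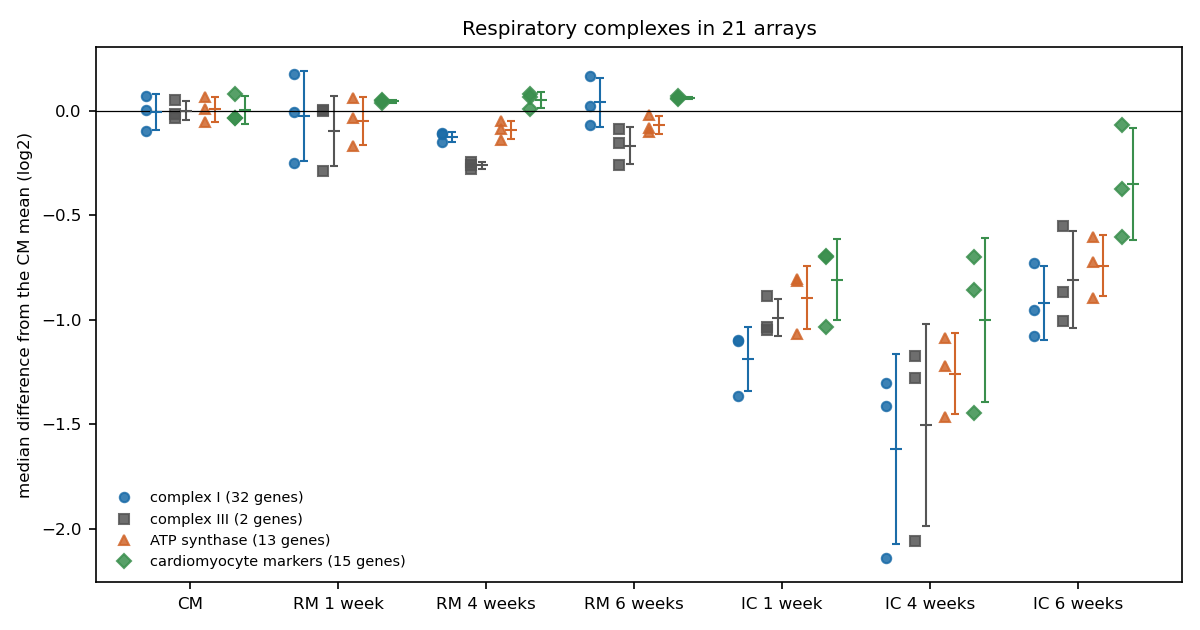
Median over the genes of each complex of the log2 difference from the CM mean, 1 point per array, for the 7 groups in order CM, RM and IC at 1, 4 and 6 weeks, with the cardiomyocyte markers and bars for the group mean ± SD (n = 3). All 9 IC arrays lie below the 12 CM and RM arrays in each of the 3 complexes, and the IC arrays of 4 weeks include the lowest.

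The loss was larger for complex I than for ATP synthase on each IC array, with complex III between or near them. The median log2 change from CM in the 32 complex I genes was -1.20, -1.59 and -0.93 at 1, 4 and 6 weeks, which leaves 43.4%, 33.2% and 52.4% of the CM level. In the 2 complex III genes it was -0.99, -1.50 and -0.81, which leaves 50.3%, 35.3% and 57.1%. In the 13 ATP synthase genes it was -0.92, -1.28 and -0.82, which leaves 52.8%, 41.3% and 56.5%. Falls of 1 log2 unit or more were found in 22, 30 and 11 of the 32 complex I genes and in 5, 11 and 3 of the 13 ATP synthase genes.

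Within each array the complex I median minus the ATP synthase median lay from -0.04 to 0.01 in CM and from -0.08 to 0.19 in RM. In IC it was -0.29, -0.30 and -0.29 at 1 week, -0.19, -0.22 and -0.67 at 4 weeks and -0.13, -0.23 and -0.18 at 6 weeks. All 9 IC arrays thus lay below the other 12 in this difference, and the value of -0.67 belonged to pig 22. Between the complex medians themselves the difference was -0.28, -0.32 and -0.11, and -0.20 at 4 weeks without pig 22. Of the 10 genes with the largest mean fall over the stages 8 were complex I genes. Of the 10 with the smallest, 5 were complex I and 4 were ATP synthase genes, where complex I made up 32 and ATP synthase 13 of the 52 members. No test was made of the difference between complexes, since the genes of a complex are not replicates, and a unit of log2 on 1 probe set need not equal that on another. The complexes also differed in level, with an RM median of 9.55 log2 for complex I and 11.10 for ATP synthase. Among genes above 10 log2 in RM, the medians were -1.09, -1.46 and -0.82 for 12 of complex I. They were -0.83, -1.18 and -0.64 for 9 of ATP synthase. The part of level in the difference was not tested.

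**Figure D2:**
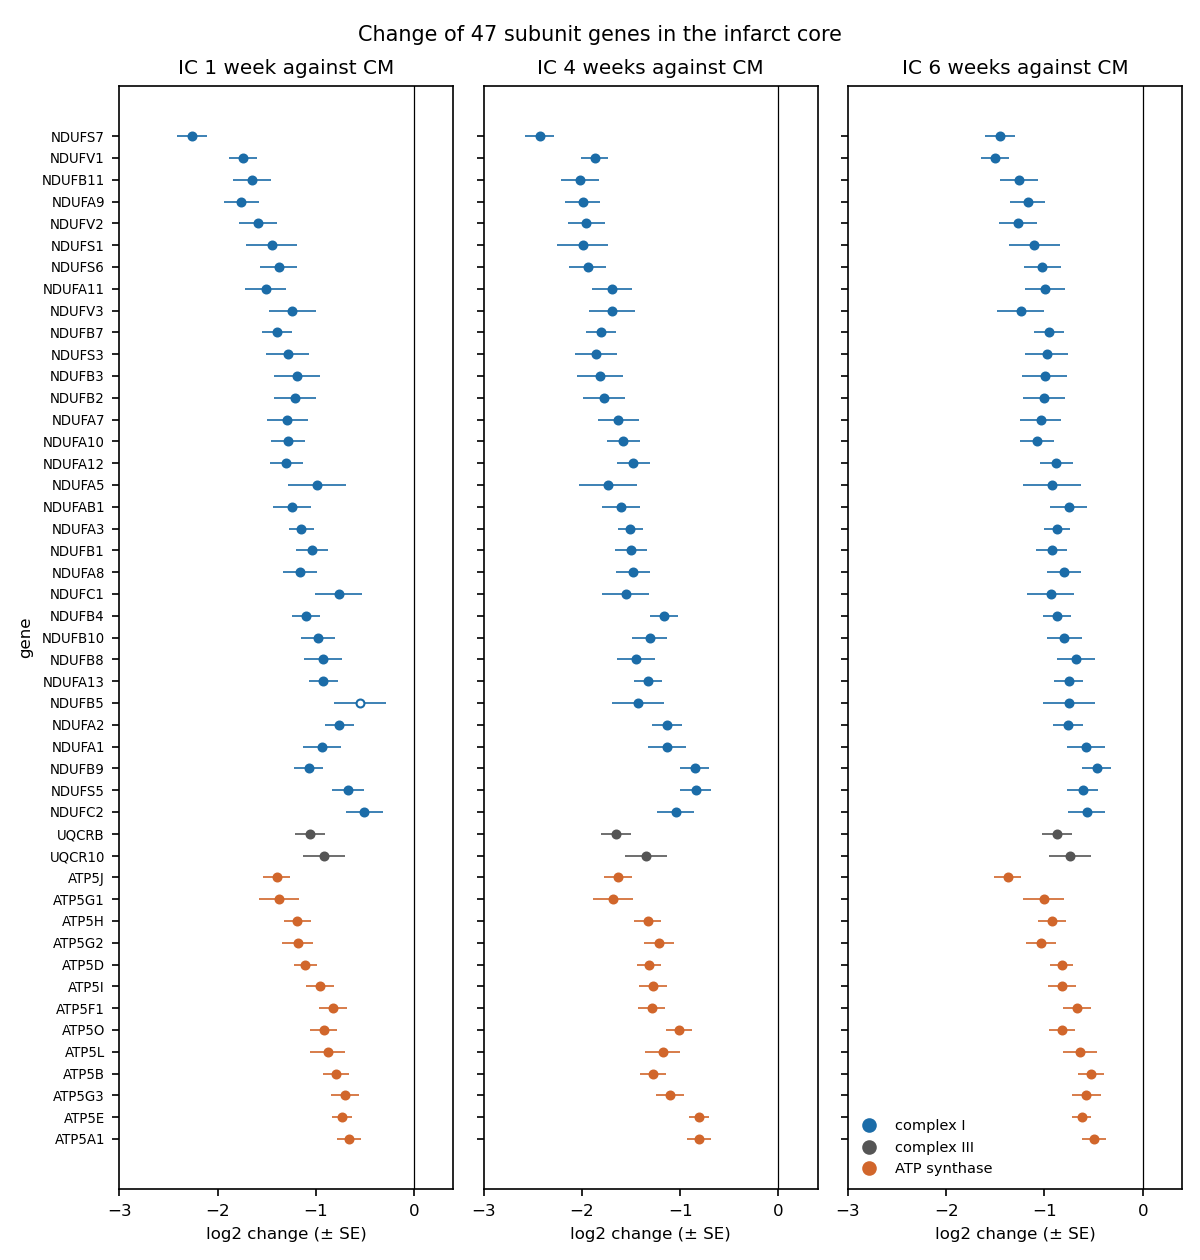
Log2 change in IC against CM for the 32 complex I, 2 complex III and 13 ATP synthase genes at 1, 4 and 6 weeks, with bars for the SE of the limma fit (3 arrays in each group) and an open point where the gene was not called. Every point lies below 0, NDUFS7 reaches the lowest value and NDUFB5 at 1 week is the point not called.

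The core catalytic subunits of complex I, among which are those that carry the flavin and iron-sulfur clusters, had larger median falls than its accessory subunits. Of the core subunits 5 were measured, with a median change of -1.59, -1.95 and -1.27 log2, against -1.15, -1.51 and -0.88 in the 27 accessory subunits. NDUFS7, whose iron-sulfur cluster hands electrons to ubiquinone, read 10.45, 10.56 and 10.60 log2 in CM. It read 8.27, 8.06 and 8.49 in IC at 1 week, 8.21, 8.23 and 7.87 at 4 weeks and 9.17, 9.18 and 8.89 at 6 weeks, while the RM arrays ran from 9.96 to 10.52. The IC arrays of NDUFS7 did not overlap those of CM or RM. Its log2 changes from CM were -2.26, -2.43 and -1.46 (SE 0.15 each), with adjusted p = 5.19e-09, 1.66e-09 and 1.04e-06. NDUFS7 thus kept 20.9%, 18.5% and 36.5% of its CM level.

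NDUFV1, which binds NADH and the flavin, read 9.24, 9.18 and 9.16 log2 in CM and 8.92 to 9.28 in RM. In IC it read 7.46, 7.41 and 7.48 at 1 week, 7.56, 7.37 and 7.03 at 4 weeks and 7.87, 7.81 and 7.39 at 6 weeks. The groups did not overlap, and the changes from CM were -1.74, -1.87 and -1.50 (SE 0.14 each; adjusted p = 3.37e-08, 1.49e-08 and 3.68e-07). NDUFV2, its partner in the NADH-oxidizing tip, changed by -1.59, -1.95 and -1.27. NDUFS1, the largest iron-sulfur subunit, changed by -1.45, -1.99 and -1.10. NDUFS3, a subunit of the arm that leads to ubiquinone, changed by -1.29, -1.86 and -0.98. NDUFS1 read 7.60 and 7.83 log2 in the IC of pigs 18 and 20 at 4 weeks but 6.52 in pig 22, so the 4-week mean of this gene leans on 1 array.

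Among the accessory subunits of complex I, which surround the core and hold it together, NDUFA9 and NDUFB11 had the largest mean falls. NDUFA9, which sits beside the ubiquinone site, changed by -1.76, -1.99 and -1.17 log2 (adjusted p = 3.02e-07, 7.58e-08 and 5.2e-05). NDUFB11, in the membrane arm, read 9.38, 9.63 and 9.60 in CM, and 7.97, 7.61 and 8.07 at 1 week, 7.76, 7.46 and 7.33 at 4 weeks and 8.45, 8.53 and 7.85 at 6 weeks in IC. Its changes were -1.65, -2.02 and -1.26 (SE 0.19 each). NDUFS5 and NDUFC2 had the smallest mean falls of complex I, with -0.67, -0.84 and -0.61 for NDUFS5 and -0.51, -1.05 and -0.57 for NDUFC2. Both were called at each stage, NDUFC2 with adjusted p = 0.0288, 0.000134 and 0.0183.

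Grouped by place in the enzyme, a grouping made after the values were seen and given with no test, the 8 genes of the NADH-oxidizing module had medians of -1.34, -1.78 and -1.07 log2. The 4 genes of the quinone-reducing module had -1.52, -1.92 and -1.08, and the 19 genes of the membrane arm had -1.07, -1.48 and -0.87. The matrix arm thus stood below the membrane arm at each stage by its medians. NDUFAB1, the acyl carrier protein that is found in both arms, changed by -1.24, -1.61 and -0.76.

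NDUFB5, not called at 1 week, read 10.33, 10.44 and 10.62 log2 in CM, 10.16, 9.85 and 9.75 in IC at 1 week, 9.40, 9.47 and 8.25 at 4 weeks and 9.92, 9.53 and 9.68 at 6 weeks. The RM arrays, from 9.88 to 10.80, overlapped the 1-week IC arrays. NDUFB5 was called at 4 weeks (-1.43 ± 0.27 SE, adjusted p = 0.000201) and at 6 weeks (-0.75 ± 0.27 SE, adjusted p = 0.0264). A probe set that the authors' tables match to NDUFB5, but the platform does not name, changed by -1.23, -1.47 and -0.81 in IC against CM. This probe set was also called lower in RM than in CM at 4 weeks (-1.28, limma, adjusted p = 0.046). Between IC and RM of the same pigs it differed by -0.89, -0.19 and -0.48 (adjusted p = 0.0185, 0.573 and 0.166).

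The small complex III subunits moved alike. UQCRB, the subunit near the ubiquinone-binding pocket, read 11.06, 11.14 and 11.16 log2 in CM and 10.74 to 11.15 in RM. In IC it read 10.12, 10.08 and 9.97 at 1 week, 9.72, 9.57 and 9.10 at 4 weeks and 10.50, 10.12 and 10.12 at 6 weeks. Its changes were -1.06, -1.66 and -0.87 (SE 0.15 each; adjusted p = 1.57e-05, 1.07e-07 and 0.000194). UQCR10, a small subunit next to the Rieske protein, read 10.47, 10.43 and 10.54 in CM and 10.27 to 10.54 in RM. In IC it read 9.70, 9.45 and 9.53 at 1 week, 9.52, 9.47 and 8.39 at 4 weeks and 9.99, 9.75 and 9.47 at 6 weeks. Its changes were -0.92, -1.35 and -0.74 (SE 0.22 each; adjusted p = 0.00161, 4.53e-05 and 0.00945). No IC array of either gene reached a CM or RM array, and at 4 weeks pig 22 was the lowest for both.

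Larger complex III subunits could be read only through names that the authors gave to probe sets to which the platform gives no such name. These names come from the authors' lists of changed probe sets, held here in part, so that they changed is fixed by that choice and no test is drawn from them. CYC1, which passes electrons to cytochrome c, changed by -1.28, -1.93 and -1.02 log2, and UQCRFS1, the Rieske iron-sulfur protein, by -1.11, -1.44 and -0.86. UQCRC1, a core protein of the complex, changed by -1.39, -1.88 and -1.12. In all, the authors' names gave 14 probe sets of 13 genes outside the members. They were below CM at each stage, with medians of -1.17, -1.44 and -0.98. They included NDUFS8 (-1.77, -1.84 and -1.08) and ATP5C1 (-1.21, -1.42 and -0.88). Also among them was the ATP5SL probe set that was set aside (-1.12, -0.77 and -2.01). The probe set that the authors match to NDUFB6 (-1.61, -2.16 and -1.50) carries the name of another gene, CYP19A3, on the platform.

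In ATP synthase, the 4 genes of the F1 head, which makes ATP, and its central stalk had medians of -0.77, -1.04 and -0.57 log2. The 4 genes of the peripheral stalk, which holds the head still, had -1.05, -1.31 and -0.87. The smaller falls were not shared by all 4 genes of the first set, since ATP5D changed by -1.11, -1.32 and -0.83. The second set includes ATP5J, whose probe set the authors' tables give to another gene. The c ring, which turns as protons pass, had medians of -1.19, -1.22 and -1.01 over 3 genes. ATP5A1, the alpha subunit of F1, read 11.67, 11.65 and 11.52 in CM and 11.41 to 11.75 in RM. In IC it read 11.04, 10.77 and 11.05 at 1 week, 10.95, 10.85 and 10.62 at 4 weeks and 11.21, 11.07 and 11.07 at 6 weeks. The IC arrays lay below all CM and RM arrays, although the changes of -0.66, -0.81 and -0.50 (SE 0.12 each; adjusted p = 0.000185, 2.44e-05 and 0.00295) were among the smallest of the members. ATP5A1 kept 63.1%, 57.2% and 70.8% of its CM level.

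ATP5B, the beta subunit with the catalytic sites, read 11.47, 11.49 and 11.43 log2 in CM and 10.74, 10.49 and 10.76 in IC at 1 week. It read 10.22, 10.38 and 9.96 at 4 weeks and 11.12, 10.95 and 10.75 at 6 weeks. The 4-week arrays lay below all others, and the changes from CM were -0.80, -1.28 and -0.52 (SE 0.13 each). A probe set that the authors' tables match to ATP5B, but the platform does not, went the other way at 4 and 6 weeks (0.04, 1.15 and 0.56 log2; adjusted p = 0.852, 1.86e-05 and 0.0121), so the match between that name and these probes is uncertain. ATP5D and ATP5E, the delta and epsilon subunits of the central stalk, changed by -1.11, -1.32 and -0.83 and by -0.73, -0.81 and -0.62.

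The c subunit is coded by 3 genes that give the same mature protein, and all were lower, by estimates of different size. ATP5G1 read 11.18, 11.25 and 11.29 log2 in CM and 10.88 to 11.36 in RM. In IC it read 9.999, 9.54 and 10.05 at 1 week, 9.81, 9.91 and 8.95 at 4 weeks and 10.40, 10.16 and 10.14 at 6 weeks. Its changes were -1.38, -1.68 and -1.01 (SE 0.21 each), where ATP5G2 changed by -1.19, -1.22 and -1.04 and ATP5G3 by -0.71, -1.11 and -0.57. All 3 were called at each stage, and the differences among them were not tested.

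ATP5J, coupling factor 6 of the peripheral stalk, had the largest mean fall of ATP synthase, with a change at 6 weeks close to that at 1 week. It read 9.36, 9.52 and 9.71 log2 in CM, 8.30, 7.96 and 8.12 in IC at 1 week, 8.03, 7.80 and 7.86 at 4 weeks and 8.30, 8.33 and 7.83 at 6 weeks. The RM arrays ran from 9.16 to 9.40, above all 9 IC arrays. Its changes were -1.40, -1.63 and -1.38 (SE 0.14 each; adjusted p = 3e-07, 5.6e-08 and 9.38e-07). The authors' tables give this probe set to another gene, CCDC114, and the probe set they give to ATP5J changed by -0.93, -1.15 and -0.71. They likewise give the NDUFS3 probe set to PTPMT1. ATP5H, the d subunit of the stalk, changed by -1.19, -1.33 and -0.92.

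The remaining members were also lower. ATP5S changed by -1.62, -1.65 and -1.32 log2 (adjusted p = 6.32e-08, 4.95e-08 and 1.44e-06), and NDUFA4 by -0.93, -1.30 and -0.67. The assembly factor NDUFAF2 changed by -1.38, -0.81 and -1.05, with its lowest mean at 1 week. NDUFAF1 changed by -1.13, -1.37 and -1.39, but its IC arrays, from 2.37 to 2.90, lay below the minimum of 3, so the size of its fall is not exact. Where a gene had other probe sets above the minimum, as 5 genes did with 7 probe sets between them, all 7 were called lower in IC at each stage.

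**Figure D3:**
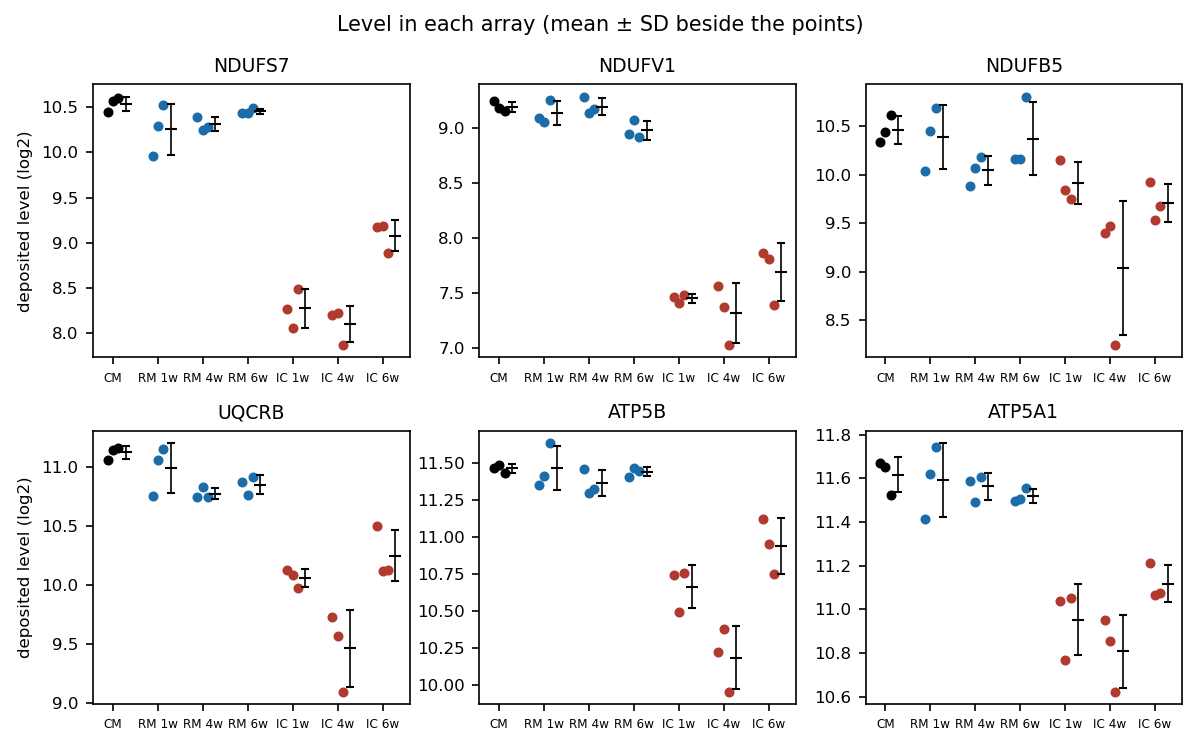
Deposited log2 level of NDUFS7, NDUFV1, NDUFB5, UQCRB, ATP5B and ATP5A1 on each of the 21 arrays by group, with the group mean ± SD beside the points (n = 3). The 9 IC arrays of all but NDUFB5 lie below the CM and RM arrays, and those of NDUFB5 lie below the CM arrays but overlap the RM arrays.

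Remote myocardium was compared with control myocardium to ask whether the change reached muscle away from the scar. No member was called at 1, 4 or 6 weeks (limma), where 1.13%, 1.08% and 0.197% of all probe sets tested were. At an unadjusted p under 0.05 there were 4, 4 and 3 members, and 1728, 2029 and 1521 of the 12180 probe sets tested. The members' share was the smaller at each stage. The lowest adjusted p of a member was 0.231, 0.261 and 0.266. The members' median change was -0.06, -0.10 and -0.04 log2, and single genes ranged from -0.53 to 0.32, from -0.49 to 0.37 and from -0.49 to 0.40. At 4 weeks, 43 of 52 genes had a mean below CM, where 48.1% of the probe sets tested did, among them both complex III genes, UQCRB with -0.35 (adjusted p = 0.261) and UQCR10 with -0.17 (adjusted p = 0.737).

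All 3 RM arrays lay below all 3 CM arrays in 3, 16 and 4 of the 52 members at 1, 4 and 6 weeks, where 9.84%, 13.5% and 11.3% of the probe sets tested did. The 16 genes at 4 weeks included UQCRB, UQCR10, NDUFS1, NDUFS7, NDUFV2 and ATP5G1. UQCRB read 10.74, 10.82 and 10.74 log2 in these RM arrays against 11.06 or more in CM. With arrays weighted by their fit to the model, 3 members (NDUFB1, NDUFB3 and UQCRB) were called at 4 weeks, so the count of 0 rests on equal weights.

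Infarct core was also compared with remote myocardium of the same pig, which takes out what the samples of 1 heart share. In every pig RM was septum and IC was scar, so site in the heart and infarction cannot be told apart in these pairs. In the fit with pig as a block, 51, 52 and 51 members were lower in IC at 1, 4 and 6 weeks, where 27.9%, 29.3% and 25% of the probe sets tested were lower. The median differences were -1.07, -1.30 and -0.86 log2. Without pig 5 the count at 6 weeks was 31. NDUFB5 was the member not called at 1 week (-0.47, adjusted p = 0.196) and at 6 weeks (-0.66, adjusted p = 0.0846). In 51 of 52 genes IC was below RM in all 9 pigs, an order held by 26.9% of the probe sets tested, and NDUFB5 held this order in 8.

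Pig by pig, the median difference between IC and RM over the 52 genes was -0.82, -1.22 and -1.18 log2 in pigs 7, 8 and 9 at 1 week. It was -1.19, -1.11 and -1.65 in pigs 18, 20 and 22 at 4 weeks, and -0.65, -0.78 and -1.06 in pigs 2, 3 and 5 at 6 weeks. Pig 22 had the deepest difference and pig 2 the least. Complex I ran from -0.75 in pig 2 to -2.03 in pig 22, and ATP synthase from -0.52 to -1.41 in the same pigs. For NDUFS7 the paired differences were -1.98, -2.21 and -1.37 in stage order (limma, adjusted p = 7.92e-06, 3.73e-06 and 7.82e-05).

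**Figure D4:**
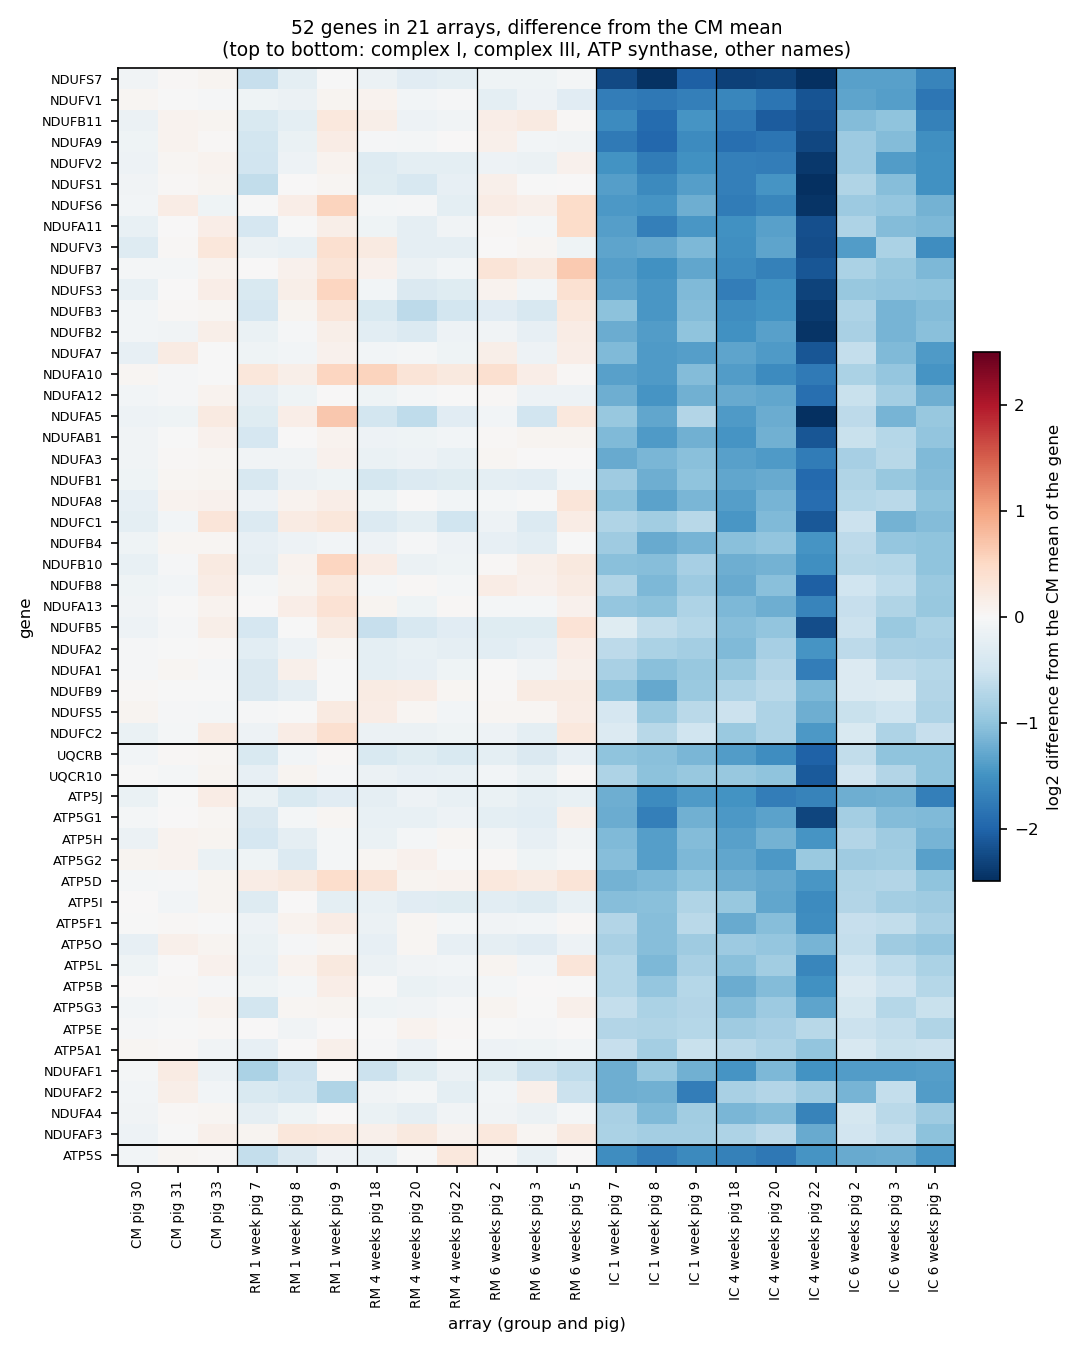
Log2 difference from the CM mean for the 52 genes (rows, by complex) on the 21 arrays (columns, by group), on a colour scale centred at 0 whose end colour also covers values past its ends. The 9 IC columns are below 0 in all rows, the column of pig 22 at 4 weeks is the lowest by its median, and the CM and RM columns lie near 0.

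Over the stages, IC levels were lowest at 4 weeks and nearest to CM at 6 weeks for most members. The lowest of the 3 IC means was at 4 weeks in 49 of 52 genes, at 1 week in NDUFB9 and NDUFAF2 and at 6 weeks in NDUFAF1. The mean nearest to CM was at 6 weeks in 46 genes. No share over all probe sets is given for these orders of means, so they are a description only. From 1 to 4 weeks, 5 members were called lower, where 6.35% of the probe sets tested were: NDUFB5 (-0.88), NDUFC1 (-0.79), UQCRB (-0.59), ATP5B (-0.48) and ATP5F1 (-0.47), with adjusted p from 0.0185 to 0.0405. The median over the 52 was -0.33, and the share of members called was close to that of all probe sets.

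From 4 to 6 weeks, 17 members were called higher, where 2.09% of the probe sets tested were. They comprised 11 genes of complex I, 1 of complex III and 4 of ATP synthase, and NDUFA4. The lowest adjusted p belonged to NDUFS7 (0.98 log2, adjusted p = 0.0018), ATP5B (0.76, 0.0038), NDUFB7 (0.85, 0.00584), UQCRB (0.78, 0.00873) and NDUFA3 (0.63, 0.0099). All 3 IC arrays of 6 weeks lay above all 3 of 4 weeks in 35 of 52 genes, where 9.02% of the probe sets tested did. The median over the 52 was 0.58. The ATP5SL probe set that was set aside went the other way in IC, lower at 6 than at 4 weeks (-1.23, limma, adjusted p = 0.00296). Its 6-week mean of 3.18 log2 lay close to the minimum of 3. Another probe set that the authors match to ATP5SL changed by 0.09 (adjusted p = 0.784). From 1 to 6 weeks, NDUFS7 (0.80, adjusted p = 0.00261), NDUFB9 (0.60, 0.0111) and NDUFA9 (0.59, 0.0322) were called higher, where 6.64% of the probe sets tested were, again a close share.

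These counts moved with single arrays. Without the IC array of pig 22, 0 members were called from 1 to 4 weeks and 4 from 4 to 6 weeks, and with only the arrays of both stages in the fit 0, 1 and 0 were called from 1 to 4, 1 to 6 and 4 to 6 weeks. The titles number the 6-week samples in a series of their own, so stage and any separate handling of those samples cannot be told apart.

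In remote myocardium no member was called between stages (limma), where 1.59%, 0.181% and 0.632% of the probe sets tested were called from 1 to 4, 1 to 6 and 4 to 6 weeks. At an unadjusted p under 0.05 there were 3, 2 and 1 members, and 2282, 1744 and 1358 of the 12180 probe sets tested. The members' medians were -0.09, 0.01 and 0.10 log2. The test of whether the difference between IC and RM itself changed with stage called 0 members in each of the 3 pairs of stages, where 0.0657%, 0.32% and 0% of the probe sets tested were called. At an unadjusted p under 0.05 it gave 0, 1 and 16 members, and 1346, 1773 and 802 of the 12180 probe sets tested. The members' share was above that of all probe sets only from 4 to 6 weeks. The median change in the difference between IC and RM was -0.25 from 1 to 4 weeks, 0.21 from 1 to 6 weeks and 0.45 from 4 to 6 weeks. A change with stage that belonged to the infarct core alone was thus not shown.

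The other complexes of the chain were read from the same fit. All 4 subunits of complex II, which feeds electrons from succinate, were lower in IC at each stage, with medians of -1.38, -1.68 and -1.10 log2, and SDHB changed by -1.76, -1.83 and -1.16. Of complex IV, which passes electrons to oxygen, 7 of 17 listed subunits were measured and 5, 6 and 5 were lower. COX8H, the heart isoform of subunit VIII, changed by -2.97, -2.80 and -1.69, and COX7A1, the muscle isoform of subunit VIIa, by -1.64, -1.80 and -0.92. COX6A1, the isoform of subunit VIa found outside muscle, was the measured subunit called higher (1.02, 1.29 and 0.83; adjusted p = 0.00018, 1.59e-05 and 0.00157). CYCS, cytochrome c, changed by -0.89 (adjusted p = 0.061), -2.33 and -1.10.

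Genes that build or serve the complexes were mostly lower as well. Of 25 listed assembly factors outside the members 11 were measured, and 10, 11 and 11 were lower. BCS1L, which inserts the Rieske protein into complex III, changed by -1.84, -2.16 and -1.57 log2, and ATPAF1, a factor for the F1 head, by -1.34, -1.73 and -1.12. SCO2 was the factor not called at 1 week (-0.07). ATPIF1, the protein that inhibits ATP synthase when it runs backwards, changed by -1.001, -1.42 and -0.84. The 5 measured genes of inner membrane structure were all lower, IMMT by -1.52, -1.68 and -1.04.

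The carriers that bring ADP to ATP synthase did not move as a family. SLC25A4, the isoform of heart and skeletal muscle, changed by -0.95, -1.21 and -0.49 log2 and was lower at each stage. SLC25A5, an isoform of dividing cells, was higher at 1 and 4 weeks (1.39 and 1.13; 0.47 with adjusted p = 0.116 at 6 weeks), and SLC25A6 too (0.55 and 0.60; 0.25 with adjusted p = 0.265). CKMT2, the mitochondrial creatine kinase of muscle, changed by -1.45, -2.14 and -0.70.

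Among the regulators of respiratory genes, 4 of 13 were measured. PPARGC1A, a coactivator that drives mitochondrial gene expression, changed by -3.13, -2.96 and -1.42 log2, and TFAM, which packs mitochondrial DNA, by -0.83, -0.92 and -0.69. TFB1M was also lower, and YY1 was called at no stage. Of 6 measured genes of general mitochondrial content, 5, 6 and 5 were lower, with CS, citrate synthase, at -1.07, -1.30 and -0.62.

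Markers of the cells in the tissue went in both directions, and those of cardiomyocytes had smaller median falls than the members. Of 21 cardiomyocyte markers 15 were measured, and 9, 11 and 6 were lower in IC, with medians of -0.82, -1.07 and -0.30 log2. The difference from the members was not tested, and a unit of log2 on 1 probe set need not equal that on another. ACTC1, cardiac actin, was higher at 1 week (0.43), while MYH7 and MYL2, contractile genes of the ventricle, were called at no stage. RYR2, the calcium release channel, changed by -1.91, -1.89 and -1.28. Summarised per array, the cardiomyocyte markers lay from -1.03 to -0.69 at 1 week, from -1.44 to -0.70 at 4 weeks and from -0.60 to -0.07 at 6 weeks in IC, and from 0.01 to 0.08 in RM. Pig 22 was the lowest and pig 2 the highest of the IC arrays, as for the members. From 4 to 6 weeks 7 of the 15 were called higher.

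Of 12 fibroblast markers 9 were measured and 8 were higher at each stage, with medians of 2.59, 2.83 and 2.77 log2. FN1 changed by 4.64, 4.62 and 4.13 and POSTN by 4.60, 4.37 and 3.96. The 5 measured macrophage and leukocyte markers of 9 were all higher, with medians of 3.34, 2.49 and 1.74. Of 4 measured smooth muscle markers 3 were higher and SMTN was lower, and the 5 endothelial markers had medians of -0.16, 0.03 and 0.09. The part of cell make-up in the members' values was not tested.

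An RNA quality sign, that of GAPDH, also moved with the infarct core. The signal of the 3' GAPDH control probes minus that of the 5' ones, which rises as RNA is degraded or copied short, was 0.09 log2 on average in CM and at most 0.509 on any RM array. It was 1.30, 0.75 and 1.14 on average in IC at 1, 4 and 6 weeks, with 0.642 the lowest IC array. GAPDH itself is a gene of the tissue, and the part of RNA quality in the members' values was not tested. The same difference for actin did not follow the infarct core. It was 3.67 in CM, 3.87, 2.97 and 4.36 in RM and 3.96, 3.04 and 4.84 in IC, so it moved with stage in both regions, lowest at 4 and highest at 6 weeks. No 2 arrays held identical values, and the precision of each comparison is limited by the number of arrays, 3 in each group.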

How the data were processed

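RNA of 21 myocardial samples was hybridised to porcine arrays. The authors summarised and normalised the scans by RMA, and the deposited values, used as given, are log2 intensities of 24123 probe sets, with no table column left unmapped. Each sample was put in its group by its GEO labels. The 12180 probe sets with a value above 3 in at least 10 arrays entered a fit in limma 3.58.1 (R 4.3.3) of 7 group means with empirical Bayes, and p-values were adjusted over all of them by Benjamini-Hochberg in each comparison. Infarct core and remote myocardium were compared with the pig as a block, since the labels give both the same pig number; same-pig residuals correlated at 0.0714 to 0.491 in the 9 pigs, and the consensus correlation was 0.207. Genes were named from the platform annotation, and all 52 member symbols were the same in RefSeq. The authors' own symbols, held for 42 members, were the same for 40.

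Values were given for every complex III gene, the core subunits of complex I, the F1 and c ring genes, the genes with the largest and smallest mean change of each complex, and those called between stages (the 5 of lowest adjusted p where over 10 were). Members and lists were chosen with earlier results of these data known, and the arms of complex I were grouped after the values were seen. The authors' columns of fold changes and p-values were not used, and their tables served only for gene names. The scripts were tested on simulated data. Alternatives to the filter, centring, normalisation, probe set choice, thresholds, weights and blocks were tried, and each array was left out in turn. No sequence is shown, and no genome build is given in the sources used here.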

Additional observations from a re-analysis of the deposited data

Results flagged for a closer look

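Infarct core was set apart from remote myocardium of the same pigs, with 51, 52 and 51 of the 52 members lower at 1, 4 and 6 weeks, where 27.9%, 29.3% and 25% of all probe sets tested were lower. Without pig 5 the count at 6 weeks was 31. NDUFB5 was the member not called at 1 and at 6 weeks.

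Stages of the infarct core differed from each other by a direct test of the difference in 5 members from 1 to 4 weeks, all lower at 4 weeks, in 3 members from 1 to 6 weeks, all higher at 6 weeks, and in 17 members from 4 to 6 weeks, all higher at 6 weeks. Of all probe sets tested, 6.35%, 6.64% and 2.09% were called in these directions, so the counts of 5 and 3 are near the background. Without the IC array of pig 22 the counts from 1 to 4 and from 4 to 6 weeks were 0 and 4, and separate fits of 2 stages gave 0, 1 and 0 members.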

How the results depend on the processing

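The direction of every complex median in IC held under all alternatives run. Centring the arrays on ribosomal protein genes shifted the median of all probe sets by -0.30, -0.33 and -0.25 log2 at 1, 4 and 6 weeks, and centring on the array median by -0.12 at 4 weeks. With ribosomal centring, complex I stood at -1.51 and -1.18 (1 and 6 weeks), complex III at -1.30 and -1.06, and ATP synthase at -1.23, -1.60 and -1.07 (1, 4 and 6 weeks), and 0 members were called from 1 to 4 weeks and 9 from 4 to 6 weeks in IC. With cyclic loess, complex I stood at -0.95 and -0.73, complex III at -0.71 and -0.58, and ATP synthase at -0.62, -0.91 and -0.58. Complex I minus ATP synthase at 1 week was -0.33 with cyclic loess, -0.27 with the filter above 5, -0.23 with the mean of all probe sets of a gene and -0.22 with the mean over genes.

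In separate fits of 2 stages, IC called 0, 1 and 0 members (1 to 4, 1 to 6, 4 to 6 weeks). With array weights it called 18 from 1 to 4 and 9 from 1 to 6 weeks, and RM called 3 members against CM at 4 weeks and 4 members from 1 to 4 weeks. At an adjusted p under 0.01 the IC stages gave 0, 1 and 5, and with a change of at least 1 log2 unit as well as p under 0.05 they gave 0, 0 and 0. That rule gave 31 and 17 members against CM and 29 and 16 against RM at 1 and 6 weeks. The cause of these differences was not tested, apart from the stricter rules.

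With the pig as a random replicate block, 51, 52 and 52 members were lower than CM and 5, 3 and 16 were called between IC stages, and with no replicate block 51, 52 and 51 were lower than RM. The block changed no other count of calls by over 1.5 times.

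Leaving out 1 array, or 1 pig in the paired fit, gave 49 to 51, 52 and 48 to 52 members lower than CM, and 46 to 51, 51 to 52 and 31 to 48 lower than RM. Without pig 5 it was 31. Between IC stages it gave 0 to 14 (1 to 4 weeks), 1 to 6 (1 to 6 weeks) and 3 to 26 (4 to 6 weeks). From 1 to 4 weeks the count was 0 without the IC array of pig 22 or 7, 1 without 9, 2 without 18, 3 without 8 and 14 without 20. From 1 to 6 weeks it was 1 without pig 3, 2 without 2, 7 or 8 and 6 without 5. From 4 to 6 weeks it was 3 without pig 2, 4 without 22, 5 without 3, and 26 without 20. RM against CM, between RM stages and in the test of IC minus RM between stages the count was 0 in each case. Complex I ranged from -1.25 to -1.13, -1.76 to -1.35 and -1.04 to -0.86, complex III from -1.04 to -0.96, -1.67 to -1.23 and -0.93 to -0.71, and ATP synthase from -0.97 to -0.85, -1.33 to -1.16 and -0.86 to -0.74. Their difference ranged from -0.31 to -0.24, -0.43 to -0.20 and -0.18 to -0.085, with -0.18 without CM pig 31.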
